A study of Mus musculus with 8 samples.

Results

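The guanylate-binding proteins (GBPs) are a family of large GTPases, and the 10 genes described here are Gbp2, Gbp2b, Gbp3, Gbp4, Gbp5, Gbp6, Gbp7, Gbp8, Gbp9 and Gbp10, out of 27179 genes measured. They were taken by gene symbol, because Gbp4 was known from these data to be higher in IL-6 knockout tumors, and unevenly so among them. The difference between the groups therefore chose the family, and it is described below with its standard error and without a p-value. RNA was sequenced from subcutaneous C26 colon carcinomas of male CD2F1 mice aged 13 to 18 weeks, with 4 tumors per group. The cxC26 scr tumors grew from cachectic C26 cells that carried Cas9 and a scrambled guide, and the cxC26 IL6KOs1 tumors grew from the same line after CRISPR guides against the gene for IL-6. The knockout line is a single subclone, s1, whereas both lines carry the lentiviral CRISPR vector and were selected with puromycin. As a general rule the study killed mice once body weight had dropped by over 15%. Its account of the RNA sequencing does not name the stage at which the tumors were taken. In other experiments of the study 1000000 cxC26 scr cells or 10000000 cxC26 IL6KOs1 cells were injected, and the terminal day was 13 for the first and 30 for the second. The day and the cell number of the sequenced tumors are not given in the sources used here, so the loss of IL-6, the choice of clone and the time of growth cannot be told apart.

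GBPs are among the genes most strongly induced by interferon-γ, which acts through its receptor and the kinases Jak1 and Jak2. The proteins assemble on the vacuoles of intracellular parasites and on the surface of bacteria, break these membranes open and feed inflammasomes, the platforms that activate inflammatory caspases. Macrophages are known for strong expression, but tumor cells, fibroblasts and endothelial cells that sense interferon express them as well. In mice the genes form 2 clusters. Gbp5, Gbp7, Gbp3, Gbp2b and Gbp2 lie in this order within 144 kb of chromosome 3 (GRCm38, 142493978 to 142638008, forward strand), and Gbp8, Gbp9, Gbp4, Gbp10 and Gbp6 within 280 kb of chromosome 5 (105014150 to 105293698, reverse strand).

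Interferons act on promoters through short sequence elements, so the promoters of the chromosome 3 cluster are shown first. RefSeq promoters, from 250 bases before to 50 bases after the transcription start, were at hand for all 5 members on chromosome 3. The set of promoters used here held none for Gbp4, Gbp6, Gbp8, Gbp9 and Gbp10. Each of the 5 held an ISRE-like pattern, the letters GAAA 2 times with any 2 bases between them, which was searched on both strands and is the kind of element bound by interferon regulatory factors. In all 5 the match lay on the reverse strand, so in the forward-strand windows of 40 bases below the capitals read as its reverse complement. The coordinates are those of GRCm38.p6.
Gbp5, chr3:142496754-142496793: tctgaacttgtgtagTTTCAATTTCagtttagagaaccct
Gbp7, chr3:142530268-142530307: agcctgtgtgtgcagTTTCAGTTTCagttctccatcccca
Gbp3, chr3:142559984-142560023: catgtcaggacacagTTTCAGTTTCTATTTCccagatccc
Gbp2b, chr3:142594695-142594734: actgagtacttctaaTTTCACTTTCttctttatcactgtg
Gbp2, chr3:142620589-142620628: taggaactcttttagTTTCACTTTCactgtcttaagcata
Counted from the transcription start, the match began at position -53 in Gbp7, -59 in Gbp2, -137 in Gbp2b and -165 in Gbp5. Gbp3 held 2 overlapping matches, at -45 and -39, and a second annotated Gbp3 promoter held none. Among 32817 RefSeq promoters of the same length, 3.43% held the pattern. The letters TTCNNNGAA, a GAS-like pattern (named for interferon-γ-activated sites), occurred 2 times in Gbp5 and 2 times in Gbp7, and 8.29% of all promoters held it. These letters did not occur in the windows of Gbp3, Gbp2b and Gbp2. A match of letters is a description of the sequence and shows neither binding nor a response.

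Between 14158989 and 17048062 reads per tumor were assigned to genes, and the totals of the groups overlapped. Il6, the targeted gene, was lower in the knockout group in all 4 tumors and fell by 2.45 on the log2 scale (SE 0.165, limma adjusted p = 1.76e-06), with 56 to 86 reads per tumor against 326 to 438. The first cxC26 IL6KOs1 tumor stood apart in the family, so values are given with and without it. Markers of epithelium, the expected tissue of a carcinoma, were low. Epcam stayed under 1 CPM (read counts scaled to a common library size of 1000000 reads) in all 8 tumors, Krt19 had no reads in 6 of them and Cldn7 none in 2, and the summed level of 6 epithelial markers was 3.31 to 4.94 CPM in the cxC26 scr tumors. RNA of tumor and host cells was sequenced together, so more cells that express a gene and more of its RNA per cell cannot be told apart.

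Every one of the 10 GBP genes was highest in the first cxC26 IL6KOs1 tumor, and the other knockout tumors lay mostly between it and the controls. Summed over the family, the 4 cxC26 scr tumors had 45.0, 40.1, 30.3 and 33.2 CPM, with a mean of 37.1 ± 6.66 (SD, n = 4). The first cxC26 IL6KOs1 tumor had 1025 CPM, and the other 3 had 66.1, 91.5 and 123 CPM, with a mean of 93.5 ± 28.4 (SD, n = 3). The groups did not overlap. The first knockout tumor was 11.0-fold above the mean of the other 3, these were on average 2.52-fold above the controls, and 70.5% of the family's CPM over all 8 tumors came from that 1 tumor. Of the 9 members that passed the filter on low expression, 7 were higher in the knockout group in the fit over all genes, where 19.1% of 13262 tested genes were called higher, and none was lower. The count was 3 without the filter, where 7.77% of all genes were called higher, and 2 when each value was weighted by its precision (voom weights), where 18.8% were. Since the family was chosen on this contrast, nothing is read from that count. The 7 were Gbp2, Gbp2b, Gbp3, Gbp4, Gbp5, Gbp6 and Gbp9. Without the first knockout tumor 8 members were called, with Gbp7 added, where 18.3% of all tested genes were called higher.

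**Figure D1:**
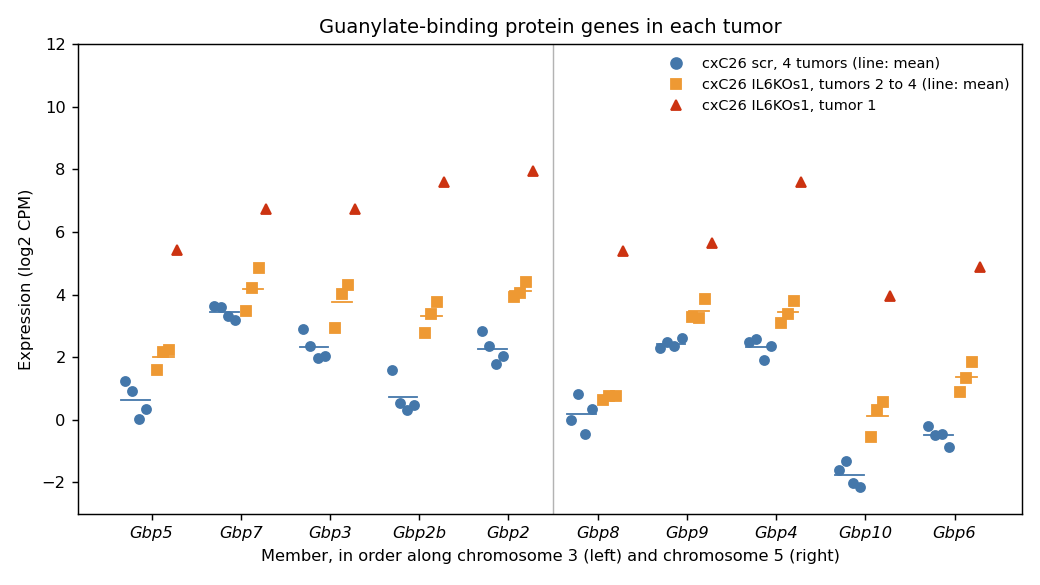
Expression of the 10 GBP genes in each tumor in log2 CPM, in order along chromosome 3 (left of the line) and chromosome 5 (right). Circles are the 4 cxC26 scr tumors, squares the cxC26 IL6KOs1 tumors 2 to 4 and triangles tumor 1, which is the highest of the 8 tumors for all 10 genes; short lines are means of the circles and of the squares.

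The members with a CaaX motif, which lets a lipid anchor be attached to their end, are Gbp2, Gbp2b and Gbp5. Gbp2, which is needed for the control of Toxoplasma in mice, measured 2.83, 2.35, 1.77 and 2.04 log2 CPM in cxC26 scr tumors 1 to 4. In cxC26 IL6KOs1 tumors 1 to 4 it measured 7.94, 3.93, 4.05 and 4.40. All knockout tumors were above all controls, the first by far. In reads, this was 48 to 118 per control tumor, 3999 in the first knockout tumor and 210 to 305 in the others. The mean difference for Gbp2 was 2.83 (standard error, SE, 0.716), or 1.88 (0.235) without the first knockout tumor.

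Gbp2b, the gene long known as Gbp1 of the mouse, had the largest difference of the tested members. Its reads numbered 50, 23, 17 and 21 in the controls and 3122, 94, 164 and 194 in the knockout tumors. On the log2 scale the controls lay between 0.30 and 1.60 and the knockout tumors at 7.59, 2.77, 3.38 and 3.75, again without overlap. The difference was 3.64 (SE 0.822), a 12.5-fold ratio, and 2.57 (0.332), a 5.94-fold ratio, without the first tumor. Gbp5, which promotes activation of the NLRP3 inflammasome, had 39, 30, 14 and 19 reads in the controls and 692, 41, 71 and 67 in the knockout tumors. Its groups came close to each other, the highest control at 1.24 log2 CPM and the lowest knockout tumor at 1.58. The Gbp5 difference was 2.22 (SE 0.675), and 1.36 (0.327) without the first tumor.

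Gbp3 and Gbp7 share the chromosome 3 cluster but lack the CaaX motif. Gbp3 had 125, 82, 56 and 63 reads in the controls and 1733, 105, 254 and 287 in the knockout tumors. The knockout tumor with 105 reads, the second, was only 0.02 above the highest control on the log2 scale. Its difference was 2.17 (SE 0.607) with all tumors and 1.43 (0.313) without the first. Gbp7, linked to the NADPH oxidase of phagocytes, measured 3.63, 3.59, 3.32 and 3.18 log2 CPM in the controls. The knockout tumors measured 6.74, 3.49, 4.21 and 4.83, so the second of them fell within the range of the controls. Gbp7 differed by 1.38 (SE 0.515) and was not called with all tumors. Without the first tumor it differed by 0.74 (0.255) and was called.

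On chromosome 5, Gbp4, reported to restrain signaling through Irf7, measured 2.47, 2.59, 1.91 and 2.35 log2 CPM in the controls. The knockout tumors measured 7.60, 3.08, 3.39 and 3.81, or 3157, 117, 165 and 202 reads, and did not overlap the controls. Its difference of 2.14 (SE 0.772) fell to 1.10 (0.218) without the first tumor, and the ratio from 4.41-fold to 2.14-fold. The call of Gbp4 was made under 7 of 17 settings of the fit. Gbp9 had the smallest excess in the first tumor. It measured 2.29 to 2.60 log2 CPM in the controls, 5.66 in the first knockout tumor and 3.28, 3.24 and 3.87 in the others, with a difference of 1.57 (SE 0.428) and of 1.03 (0.190) without the first tumor.

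Gbp8 stood above the controls only in the first knockout tumor. It had 16, 28, 10 and 19 reads in the controls, 675 in that tumor and 21, 26 and 24 in the other 3, which overlapped the controls. With a difference of 1.70 (SE 0.883), and of 0.54 (0.350) without the first tumor, it was called under none of 16 settings. Gbp6 and Gbp10, which take part in the control of intracellular bacteria, had the fewest reads. Gbp6 had 14, 11, 10 and 8 reads in the controls, all under 1 CPM, and 473, 25, 39 and 52 in the knockout tumors, so it passed the filter only through the knockout group. Its difference was 2.73 (SE 0.688), and 1.85 (0.346) without the first tumor. Gbp10 reached 1 CPM in only 3 tumors and was not tested. It had 5, 6, 3 and 3 reads in the controls and 251, 9, 19 and 21 in the knockout tumors.

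The counts of Gbp6 and Gbp10 are uncertain. Of all stretches of 150 bases, the read length, in annotated Gbp10 transcripts, 66.6% also occurred in transcripts of another gene, mostly of Gm43302, a gene model that joins parts of both, and for Gbp6 it was 59.1%. Of stretches of 50 bases in Gbp10, 73.3% also occurred in Gbp6. For Gbp7 8.77% of the 150-base stretches were shared with the processed pseudogene Gm43802, for Gbp4 0.0254% with Gbp11, and for the other 6 members the share was 0%. The handling of reads with several matches is not given in the sources used here. Gbp4, Gbp8 and Gbp9 also overlap by 60 to 61 exon bases, Gbp2 overlaps Mir6381 on the other strand, and in RefSeq Gbp3 overlaps Gm40158 and Gbp10 overlaps Gm31785.

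**Figure D2:**
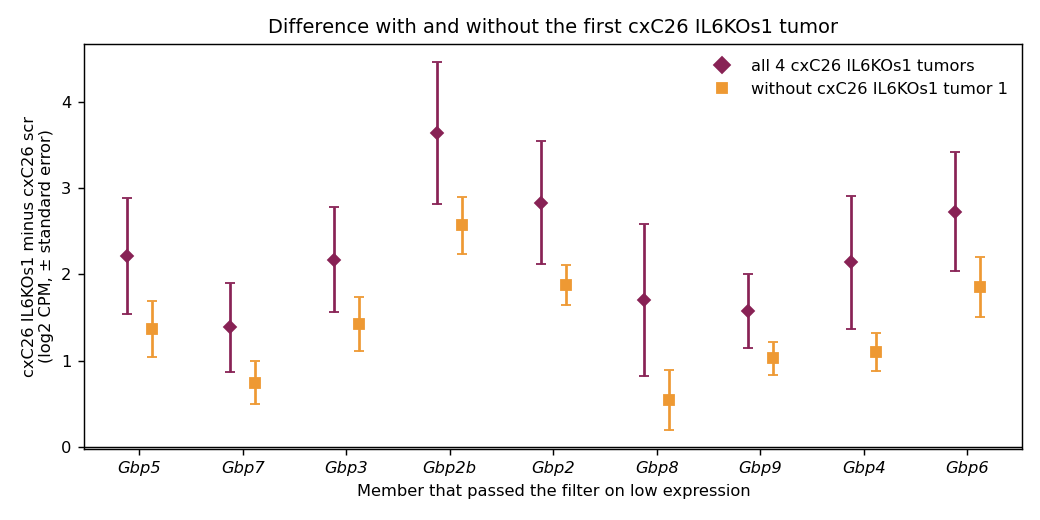
Difference between cxC26 IL6KOs1 and cxC26 scr tumors in log2 CPM for the 9 members that passed the filter, with standard errors from the fit over all genes. Diamonds use 4 against 4 tumors and squares leave out the first knockout tumor; all squares stay above 0 and below their diamonds, with the highest for Gbp2b (2.57) and the lowest for Gbp8 (0.54).

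Most members ranked the knockout tumors alike. The order from high to low was tumor 1, 4, 3 and 2 for 9 of 10 members, the exception being Gbp9, where tumor 3 was lowest. The share of all tested genes with that ranking was not computed, and its top place restates the choice of the family, so nothing is read from it. Tumors 3 and 4 were close in Gbp8 (26 and 24 reads) and in Gbp5 (71 and 67 reads). All 4 knockout tumors were above all 4 controls for 8 of 10 members, Gbp7 and Gbp8 excepted, and 17.8% of all tested genes had that order. Gbp6, with all controls under 1 CPM, needed this order to pass the filter, and Gbp10 was not tested. The family was chosen on this contrast, so nothing is read from that count. The first knockout tumor exceeded the next highest by over 1 on the log2 scale for 10 of 10 members, the untested Gbp10 included, as it did for 1.57% of all tested genes. The family was chosen because Gbp4 was uneven among the knockout tumors, so this count restates that choice. Relative to the mean of the other 3, the excess of the first knockout tumor ran from 2.20 for Gbp9 to 4.66 for Gbp8, with a median of 3.66, or from 4.59-fold to 25.4-fold. Over the 45 pairs of members, Pearson's r across the 8 tumors was 0.884 to 0.995 with a median of 0.975, and across the 7 tumors without the first it was 0.524 to 0.989 with a median of 0.925. These describe tumors that share libraries, groups and 1 extreme sample. Over the 10 members, the excess in tumor 1 and the difference of the other 3 from the controls had an r of 0.256. The mean of those 3 tumors enters these quantities with opposite sign, which lowers r, so nothing is read from it. Gbp8 had the largest excess and the smallest difference in the rest.

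The make-up of the family differed between the tumors as well as its size. In the controls Gbp7 held 27.3% to 33.1% of the family's CPM, in knockout tumors 2 to 4 it held 17.0% to 23.2% and in the first 10.4%. The share of Gbp2b went the other way, from 3.62% to 6.72% in the controls to 10.3% to 11.4% in knockout tumors 2 to 4 and 18.7% in the first. Gbp2 held 11.3% to 15.8%, then 17.2% to 23.0%, and 24.0% in the first. Gbp9 had its lowest share in the first knockout tumor, at 4.93% against 10.3% to 18.3% in the other 7. The chromosome 3 cluster as a whole held 60.2% to 72.0% in the controls and 66.3% to 72.3% in the knockout tumors, so the ranges of the cluster share overlapped.

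**Figure D3:**
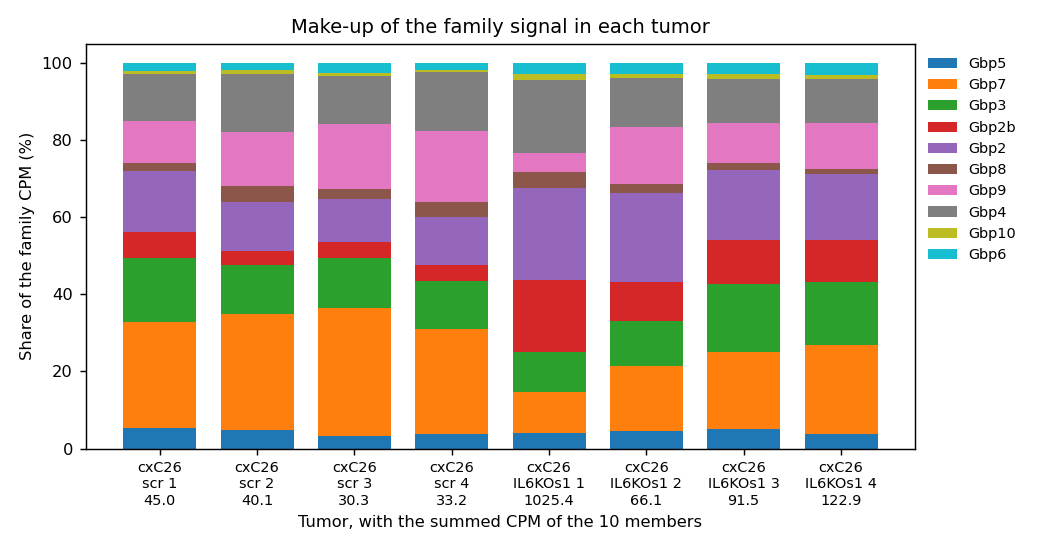
Share of each member in the summed CPM of the 10 GBP genes, in percent, for each tumor, with the chromosome 3 genes stacked below the chromosome 5 genes. The sum in CPM stands under each bar; Gbp7 shrinks from 27.3% to 33.1% in the cxC26 scr tumors to 10.4% in the first cxC26 IL6KOs1 tumor, where Gbp2b reaches 18.7%.

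To compare levels between genes, CPM per kb of annotated exon was used. In the controls Gbp2 was at 1.96 ± 0.64 CPM per kb (SD, n = 4), Gbp7 at 1.94 ± 0.29 and Gbp3 at 1.59 ± 0.50, and these 3 did not differ beyond their spread. They were followed by Gbp9 at 1.05 ± 0.10, Gbp4 at 0.681 ± 0.13 and Gbp2b at 0.629 ± 0.30, the last 2 within their spread of each other. Gbp8 (0.345 ± 0.13) and Gbp5 (0.246 ± 0.092) overlapped too, with Gbp6 at 0.120 ± 0.022 and Gbp10 at 0.0778 ± 0.021 below them. In knockout tumors 2 to 4 the order was Gbp2 at 7.004 ± 1.22, Gbp3 at 4.45 ± 1.92, Gbp2b at 3.62 ± 1.17, Gbp7 at 3.45 ± 1.54 and Gbp9 at 2.17 ± 0.56 (SD, n = 3). Gbp4, Gbp5, Gbp8, Gbp6 and Gbp10 followed at 1.47, 0.612, 0.477, 0.446 and 0.293 CPM per kb. Gbp2b thus stood at rank 6 in the controls and at rank 3 there, while the spreads of Gbp3, Gbp2b and Gbp7 overlapped. In the first knockout tumor Gbp2 led with 97.8 and Gbp2b followed with 68.1, ahead of Gbp3 at 32.7, Gbp4 at 25.9 and Gbp7 at 19.0 CPM per kb. Gbp8, at rank 8 in the other knockout tumors, was at rank 6 there with 12.1.

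The interferon-γ pathway that induces GBPs was examined in a list of 13 genes. Ifng, which encodes interferon-γ itself, had 33 reads (2.03 CPM) in the first cxC26 IL6KOs1 tumor and 0, 1 and 2 reads in the others. It had no reads in any cxC26 scr tumor, where a count of 0 allows up to 0.180 to 0.211 CPM, and it was not tested. Of the 12 tested genes, 5 rose, among them Ifngr1, Irf8, Irf9 and Stat2. Socs3, a feedback inhibitor of cytokine receptors, fell, and the other 6 did not pass the test, with a list median of 0.39 against -0.0029 over all tested genes. Over all genes, 19.1% were called higher and 20.7% lower. Stat2 rose by 1.12 (limma adjusted p = 0.00248). Irf1, a transcription factor induced by interferon-γ, measured 7.43 in the first knockout tumor, 5.47 to 5.97 in the others and 5.46 to 5.72 in the controls. Its difference of 0.55 did not pass (limma adjusted p = 0.193), and without the first tumor it was 0.13. The kinases and the second receptor chain had differences of 0.04 for Jak1, -0.13 for Jak2 and -0.17 for Ifngr2, none of which passed. Without the first knockout tumor Jak2 was at -0.32 (limma adjusted p = 0.0569).

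Other interferon-inducible GTPases, most of them immunity-related GTPases that act on the same vacuoles as GBPs, were highest in the same tumor. All 8 tested genes of this list of 10 rose, where 19.1% of all tested genes were called higher, with a median of 2.11 and of 1.43 without the first knockout tumor, and in 8 of 8 that tumor exceeded the next highest knockout tumor by over 1, where 1.57% of all tested genes did. Tgtp1 and Gvin1 were not tested. Irgm1, a regulator of the group, rose by 1.38 (SE 0.297, limma adjusted p = 0.00354), Igtp by 1.72 (0.471, limma adjusted p = 0.0131) and Tgtp2 by 3.42 (0.792, limma adjusted p = 0.00541). Their excess in the first knockout tumor over the mean of the other 3 was 1.55, 2.49 and 3.63.

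Genes of antigen presentation and chemokines induced by interferon-γ were highest in the first knockout tumor. In 15 of 16 tested genes it exceeded the next highest knockout tumor by over 1, against 1.57% of all tested genes. In this list 8 rose, all of them immunoproteasome, peptide transporter or chemokine genes (Psmb8, Psmb9, Psmb10, Tap1, Tap2, Cxcl9, Cxcl10 and Cxcl11), and none fell, where 19.1% of all tested genes were called higher and 20.7% lower. Cxcl11 passed the filter only through the knockout group and so had to differ. The median of 1.19 dropped to 0.40 without the first tumor, with 7 genes called. Cxcl9, a chemokine that attracts activated T cells, rose by 3.42 (SE 1.14, limma adjusted p = 0.0325) and measured 7.55 log2 CPM in the first knockout tumor, 0.76 to 2.22 in the others and -0.92 to 0.60 in the controls. Its difference was 1.93 without the first knockout tumor. It was called under 9 of 16 settings, with an adjusted p from limma of 0.00560 to 0.175 over them, and the call was lost without cxC26 scr tumor 1 (0.0633), 3 (0.0779) or 4 (0.0760). Cd74, the invariant chain of MHC class II, measured 9.18 in that tumor and 5.30 to 5.79 in the others against 4.97 to 6.09 in the controls. Its difference of 1.13 did not pass (limma adjusted p = 0.222).

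The receptor gene Ifnar2 and the antiviral genes of the type I interferon response rose in the knockout group without a peak in the first knockout tumor. Of 16 tested, 15 rose and none fell, where 19.1% of all tested genes were called higher and 20.7% lower, with a median of 1.87 and of 1.99 without the first knockout tumor. The gene that did not pass was Ifnar1, a receptor chain. In 0 of 16 did the first tumor exceed the next highest by over 1. Mx1 rose by 2.53 (SE 0.538, limma adjusted p = 0.00329) and measured 2.98 log2 CPM in the first tumor against 2.66 to 3.62 in the other knockout tumors. Its controls were widely spread, from -1.13 to 2.12. Ifi44 rose by 2.51 (SE 0.468, limma adjusted p = 0.00147), with its highest control at 3.78 and its lowest knockout tumor at 3.80. Among the controls the list mean was 3.58 in cxC26 scr tumor 1, near the lowest knockout tumor, and 1.95 to 2.48 in the others. The mean of the list was 4.27 in the first tumor and 3.73 to 4.61 in the others, whereas the mean of the other GTPases was 5.98 against 2.75 to 3.55 and that of the presentation and chemokine genes 6.38 against 3.72 to 3.80. The difference between these lists was not tested.

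**Figure D4:**
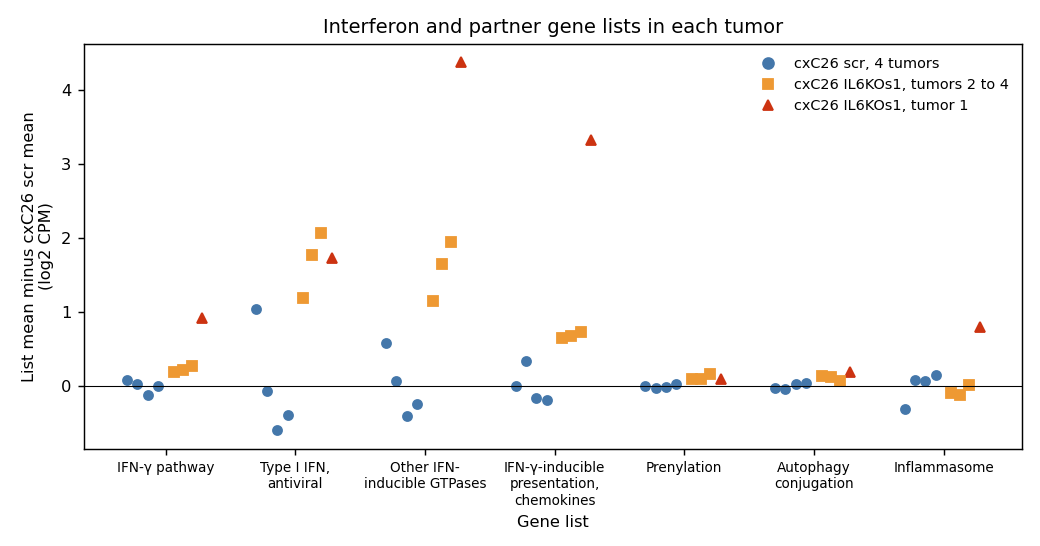
Mean log2 CPM of the tested genes of 7 lists in each tumor, minus the mean of the 4 cxC26 scr tumors; circles are cxC26 scr tumors, squares cxC26 IL6KOs1 tumors 2 to 4 and triangles tumor 1. The triangle lies far above the squares for the other interferon-inducible GTPases and for the presentation and chemokine genes, and among the squares for the type I interferon genes.

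Genes whose products GBPs work with had list medians of 0.24 for prenylation, 0.24 for autophagy conjugation and -0.06 for inflammasomes, and their counts stand beside 19.1% of all tested genes called higher and 20.7% lower. The 6 prenylation genes attach the lipid anchor of Gbp2, Gbp2b and Gbp5 or process the protein end that carries it. Of these genes 3 rose (Fnta, Rce1 and Zmpste24), and Pggt1b, the subunit specific to geranylgeranylation, fell by 0.44 (SE 0.142, limma adjusted p = 0.0290). Zmpste24 was called under 10 of 17 settings and Pggt1b under 11, with limma adjusted p-values of 0.0170 to 0.0684 and of 0.00707 to 0.0956. Leaving out cxC26 scr tumor 1, 2 or 3 or cxC26 IL6KOs1 tumor 3 or 4 lost the call of Zmpste24, and leaving out cxC26 scr tumor 2, 3 or 4 or cxC26 IL6KOs1 tumor 2 or 3 lost that of Pggt1b. Of 9 autophagy conjugation genes, needed for the placement of GTPases on vacuoles, 4 rose (Atg3, Atg5, Gabarapl2 and Map1lc3b), and Atg16l1 fell by 0.65 (SE 0.0995, limma adjusted p = 0.000434). Of 8 inflammasome genes 2 rose, Pycard by 1.07 (SE 0.221, limma adjusted p = 0.00283) and Il18 by 0.67 (0.242, limma adjusted p = 0.0460), a share near that of all genes. Il18 was called under 6 of 16 settings (limma adjusted p-values of 0.0180 to 0.119), and of the fits that left out 1 tumor only the one without cxC26 scr tumor 2 kept its call. Without the first knockout tumor 1 gene of the list was higher and 1 lower. Gsdmd, the pore-forming protein of pyroptosis, differed by 0.34 and did not pass (limma adjusted p = 0.0796). Without the first knockout tumor Gsdmd differed by 0.165 (limma adjusted p = 0.140). All 4 knockout tumors were above all controls in Gsdmd, as they were in 17.8% of all tested genes.

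Marker sums of several immune cell types were, like the family, highest in the first knockout tumor, but not every marker was. Over all tested genes, 19.1% were called higher and 20.7% lower. Macrophage and monocyte markers, 8 of 8 called higher, summed to 431 to 606 CPM in the controls, 1347 in the first knockout tumor and 879 to 992 in the others. Mrc1, at 205 CPM in the first knockout tumor, was below the others (215 to 298) and within the controls (129 to 255). Ccr2, at 66.0 CPM, lay within the others (52.6 to 75.7), and the rest of this list was highest in the first knockout tumor. The pan-leukocyte sum was 147 to 176, 511 and 247 to 333 CPM, with 4 of 4 called higher. Natural killer and cytotoxic markers (4 of 7 tested) summed to 1.14 to 5.84, 49.3 and 12.1 to 13.6 CPM, and Ncr1, Nkg7 and Prf1 had no reads in at least 1 tumor. Of these, Gzmb and Prf1 were called higher, while Nkg7 and Klrk1 passed the filter only through the knockout group and had to differ. Prf1 stood above the controls (0.0325 to 1.27 CPM) only in the first knockout tumor, at 11.7 CPM. In the other knockout tumors it measured 0.932 to 1.05 CPM. T cell markers (7 of 9 tested) summed to 2.96 to 5.53, 25.8 and 14.2 to 19.1 CPM, with Cd3e, Cd3g, Cd8a and Cd8b1 without reads in at least 1 tumor. Lck and Cd4 were called higher, and the other 5 tested (Cd3g, Trac, Cd2, Cd8a and Cd8b1) passed the filter only through the knockout group. In the first knockout tumor Cd3e, Cd3d, Cd2, Cd8b1 and Cd4 lay within the range of the other knockout tumors. Cd3g, Trac, Lck and Cd8a lay above that range. B and plasma cell markers (2 of 6 tested) reached 73.4 CPM in the first knockout tumor, mostly from Jchain at 58.9, which passed the filter only through the knockout group, against 8.42 to 22.3 in the others and 1.38 to 3.16 in the controls, and Mzb1 was without reads in at least 1 tumor. Neutrophil markers (3 of 4 tested, 1 higher) summed to 10.5 to 20.2, 28.2 and 15.9 to 18.1 CPM, and dendritic cell markers (1 of 6 tested, which was lower) to 11.4 to 15.8, 9.17 and 6.21 to 8.01. Endothelial markers (4 of 4 tested, none called) summed to 103 to 165, 109 and 116 to 135 CPM, and fibroblast markers (5 of 5 tested, 2 lower) to 3782 to 5647, 3206 and 3623 to 4743. The epithelial sum was 25.1 CPM in the first knockout tumor and 14.5 to 26.7 in the others, with 2 of 6 tested and both higher, Krt18 and Cdh1. The family was 11.0-fold higher in the first knockout tumor than in the mean of the others, compared with 1.43-fold for macrophage markers, 1.73-fold for pan-leukocyte markers, 1.56-fold for T cell markers, 3.80-fold for cytotoxic markers and 5.56-fold for B and plasma cell markers. The part of these cells in the GBP values was not tested.

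The genes most like Gbp4 over the 8 tumors, among 9993 genes outside the family whose mean reached 3 log2 CPM, were Gsdmd (Pearson's r 0.991), Samhd1 (0.984), Arhgap19 (0.984), Abcg1 (0.980) and Igtp (0.979). Over the 7 tumors without the first knockout tumor the same genes had an r with Gbp4 of 0.919, 0.915, 0.911, 0.825 and 0.930. For Gbp7, taken because its mean log2 CPM, not scaled by length, was the highest of the members, the closest were Kctd12 (0.978), Fcgr4 (0.976), Fgl2 (0.975), Gsdmd (0.974) and Aif1 (0.971), with 0.960, 0.896, 0.907, 0.895 and 0.891 over the 7 tumors. These values rest on 8 libraries that share the same extreme tumor and are a description only.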

How the data were processed

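RNA from 8 tumors, 4 cxC26 scr and 4 cxC26 IL6KOs1, was grouped by sample title. The authors purified poly(A) RNA, prepared NEBNext Ultra libraries, demultiplexed with bcl2fastq 2.17, trimmed with Trimmomatic, aligned with HISAT2 to mm10 (GRCm38), counted with featureCounts and deposited log2 CPM from limma-voom. Annotation, strand setting and the other versions are not given in the sources used here.
The deposited log2 values hold an offset of 0.5 reads, and 1 in the library size. Inverting them gave whole reads for 100% of values, within 0.01 reads, or 0.01% of counts over 100. Low genes are limited by counting error, and intervals from 0 counts (3 reads) cover that error only. CPM sums keep the offset. Overlapping genes can share reads.
Differences were fitted in R 4.3.3 with limma 3.58.1 (lmFit, eBayes with trend) to the 13262 genes that reached 1 CPM in 4 or more tumors, without covariates, with Benjamini-Hochberg adjustment over all of them and a threshold of 0.05. The code was tested on simulated data. All 10 members are named, as are in each pathway list up to 3 genes of highest mean and 2 of largest called difference, Il6, Ifng, Irf1 and the 5 genes most like Gbp4 and Gbp7. Some genes this rule names are not reported here. Other gene names were added after their values were seen. Members and lists (7 pathway, 10 marker) were chosen with earlier results of these data known. The labels number the tumors without naming the mice, so p-values measure only the spread between these samples. Of the listed comparisons, protein length and identity were not analysed here. Alternatives tried were filters, quantile normalization, re-centring, a replicate block, no variance trend, voom weights, a pseudocount of 1 CPM and leaving out each tumor.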

Additional observations from a re-analysis of the deposited data

Results flagged for a closer look

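In 126 groups of 4 tumors, each with the 4 tumors of 1 group for 1 gene, list mean or marker sum, the extreme tumor's gap to its neighbor was divided by the group's range and set against Dixon's critical value. There were 23 such gaps, where chance gives about 6.3, and many share the same tumor. The family was chosen because Gbp4 was uneven among the knockout tumors, so the gaps in its members restate that choice. Among the family, the first cxC26 IL6KOs1 tumor stood apart in Gbp2 (7.94 log2 CPM), Gbp4 (7.60), Gbp5 (5.41) and Gbp8 (5.38). It stood apart in the same direction in the means of the interferon-γ pathway (6.33), of the presentation and chemokine genes (6.38) and of the inflammasome genes (4.68). Single genes with that pattern were Jak2 (7.43), Irgm1 (6.66), Ifi47 (6.49), Igtp (6.52), Cd74 (9.18), Psmb8 (7.57) and Gsdmd (7.05), and so was the sum of natural killer and cytotoxic markers (49.3 CPM).
Other gaps did not involve that tumor. The fourth knockout tumor was highest in the mean of the prenylation genes (5.64) and the third in Il6 (2.46). Among the cxC26 scr tumors, tumor 2 was apart in Cd74 (6.09), Psmb8 (4.996), Atg5 (5.02) and the T cell marker sum (5.53 CPM), tumor 3 in Irf1 (5.46) and tumor 1 in the fibroblast marker sum (5647 CPM). Some gaps of this size are given by chance alone, and no cause was tested.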

How the results depend on the processing

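The direction of each tested member was the same under every setting that tested it, 17 for Gbp2, Gbp3, Gbp4, Gbp7 and Gbp9 and 16 for Gbp2b, Gbp5, Gbp6 and Gbp8, which a filter at a mean of 3 log2 CPM removed. Over the settings, the difference in log2 CPM ran from 1.88 to 3.22 for Gbp2, from 2.57 to 4.18 for Gbp2b, from 1.43 to 2.70 for Gbp3, from 1.10 to 2.60 for Gbp4, from 1.36 to 2.64 for Gbp5, from 1.83 to 3.18 for Gbp6, from 0.74 to 1.83 for Gbp7, from 0.54 to 2.12 for Gbp8 and from 1.03 to 1.83 for Gbp9. The calls were less stable. Against 7 members called higher, 3 were called without a filter on low expression, where 7.77% of all genes were called higher, and 2 with voom weights, where 18.8% were; the cause was not tested. The filter at a mean of 3 log2 CPM left 29 list genes called higher against 45, with fewer genes tested. With 1 tumor left out at a time, 5 to 8 members were called higher and 0 lower, 37 to 42 list genes higher and 2 to 4 lower, and 2023 to 2540 genes higher and 2193 to 2674 lower. Gbp7 was called under 6 of 17 settings and Gbp4 under 7. The replicate numbers do not pair the tumors, whose deviations correlated at -0.0593 to 0.0570, and with the number as a replicate block 2477 genes were higher and 2688 lower, with 8 members called. Of 140 member values under alternatives, 115 kept their side of the threshold, as did 530 of 569 for other named genes. Low read counts limit Gbp5, Gbp6, Gbp8 and Gbp10 in the controls, and shared sequence limits Gbp6 and Gbp10.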

Other observations

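Gbp11, annotated as a polymorphic pseudogene beside Gbp6 on chromosome 5, followed the family at very low counts, where cxC26 scr tumors had 0, 1, 3 and 3 reads and cxC26 IL6KOs1 tumors had 22, 1, 4 and 5. It was not tested. Only the first knockout tumor stood above the few reads of the others.
The nearest tested protein-coding genes outside the clusters, chosen after the data were seen, did not share the pattern of the first tumor. On chromosome 3, Pdlim5 before the cluster differed by 0.55 (SE 0.101, limma adjusted p = 0.00130) and measured 6.75 log2 CPM in the first knockout tumor, within the 6.69 to 7.07 of the others, and Gtf2b after it differed by 0.09 (limma adjusted p = 0.484). On chromosome 5, Lrrc8b fell by 0.54 (limma adjusted p = 0.0292). Abcg3, on the other side, was an exception, at 3.63 log2 CPM in the first knockout tumor against 0.76 to 2.40 in the others, with a difference of -0.39 (limma adjusted p = 0.519).
Equal read counts occurred between members. Gbp3 and Gbp7 both had 1733 reads in the first knockout tumor, and Gbp2 and Gbp3 both had 82 reads in the second and 63 in the fourth cxC26 scr tumor. Their counts in the other tumors differed, so these are not the same row repeated.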
